A study of Mus musculus with 32 samples.

Results

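WSP-1 and WSP-2 are 2 mouse lines that were bred independently, from the same genetically heterogeneous stock, for severe convulsions on withdrawal from ethanol. Prefrontal cortex expression was compared between them on all 16 WSP arrays of a study of 32, which leaves 8 arrays of WSP-1 and 8 of WSP-2. The other arrays of the study came from WSR-1 and WSR-2, the lines bred for mild withdrawal, and are used here only for a single comparison. Membership rested on the labelled line and replicate of selection, not on any measured value.

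Each line contributed 4 groups, namely female EtOH, male EtOH, female Air and male Air, with 2 arrays in each. Each array measured RNA pooled from 2 adult, drug-naive mice of selected generation 26, so a difference between arrays is a difference between pools. EtOH mice inhaled ethanol vapor for 72 h and Air mice were kept in air chambers. Pyrazole, which blocks alcohol dehydrogenase, was given at 68.1 mg/kg to the mice of every group, Air included, and the cortex was dissected at 0 h of withdrawal. The priming ethanol injection of the EtOH mice was 1.5 g/kg in WSP-1 and 0.25 g/kg more in WSP-2, which the submitters chose to keep blood ethanol alike. Line and injected dose therefore cannot be told apart within the EtOH arrays, whereas the Air arrays of both lines received none.

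Selective breeding raises the frequency of alleles that act on the selected trait, and in a small closed population it also fixes other alleles by chance. Replicate lines selected in the same direction are kept for this reason: alleles that matter for the trait tend to be shared by the replicates, whereas chance fixation falls on different genes in each. Expression that differs between WSP-1 and WSP-2 in both sexes and both treatments would mark such line-specific differences.

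The measure was the brightness of 33P-labelled cDNA on spotted cDNA arrays, given below as log2 normalised intensity. A difference is WSP-1 minus WSP-2 on this log2 scale, so that a positive value means higher in WSP-1. Of 5163 cDNA probes, 3872 passed the filter on dim spots, and 786 of these carry a title that names 1 gene. Across the 16 arrays the background readings spanned 10.3 to 283, and between 15.8% and 82.5% of spots exceeded it. The 4 female arrays of pool 1, 2 in each line, were the poorest, with background readings of 88.4 to 283, against 10.3 to 66.8 on female pool 2 arrays and 12.8 to 41.1 on male arrays. A second feature of the arrays was positional, since spots printed in the same grid shifted together on single arrays. Female WSP-2 Air pool 1 was the lowest array in grids 1e and 1f, with median residuals of -0.76 and -0.59 after sex and treatment were removed. It was also the lowest in grids 1g, 1h and 2e, at -0.60, -0.55 and -0.60. Female WSP-2 EtOH pool 1 stood at -0.37 in grid 1e and -0.36 in grid 1f. The labelled sex could not be checked, because the Y-linked Eif2s3y, which has a closely similar copy on the X chromosome, exceeded background on 6 of 8 female and 6 of 8 male arrays. The X-linked Kdm6a was too dim to be tested.

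No probe separated the 2 lines. With limma, 0 of 3872 probes (0%) differed at an adjusted p of 0.05, and the smallest adjusted p was 0.993. At an unadjusted p under 0.05 there were 140 probes, or 3.62% of those tested, of which 80 (2.07%) were higher and 60 (1.55%) lower in WSP-1. No probe had WSP-1 and WSP-2 arrays that failed to overlap (0 of 3872). Among male arrays, the correlation across all tested probes averaged 0.922 for the 12 pairs within a line and 0.922 for the 16 pairs between lines. Among female arrays it averaged 0.812 for 12 pairs within a line and 0.822 for 16 pairs between lines. In neither sex did the average within a line exceed the average between lines. Pairs within a line shared a treatment or a pool number less often than pairs between lines. The averages are therefore not a matched comparison and do not settle how alike arrays of a line are.

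These arrays nevertheless bounded the size of the differences in measured intensity. Over all tested probes the median difference was -0.01, and the 5th and 95th percentiles stood at -0.49 and 0.46. The standard error of a difference had a median of 0.28. The 95% interval lay wholly between -1 and 1, that is, within a doubling or a halving of intensity, for 2827 probes (73%), and between -2 and 2 for 3844 probes (99.3%). Where a probe did not exceed background, such an interval bounds the spot intensity and not the expression. The 509 probes above background on all 16 arrays had a median standard error of 0.16, and their differences ran from -0.75 to 0.63. Of those 509, 94.9% had an interval within -1 to 1. These sizes depend on the background correction. Without it the 5th and 95th percentiles of all differences stood at -0.30 and 0.26, and 19 of the 20 genes named below for the line difference could be measured, each with a difference smaller by over 1.5 times, such as 0.31 for the cis-Retinol/3alpha-hydroxysterol short-chain dehydrogenase, 0.19 for adducin 3 (gamma) and 0.24 for Rpl27a.

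The 20 named genes with the smallest unadjusted p are described next, and none of them passed the adjusted threshold (limma, adjusted p = 0.993 for each). Of these, 13 were higher and 7 lower in WSP-1. None exceeded background on all 16 arrays, and each of the 13 higher ones exceeded it on more WSP-1 than WSP-2 arrays. All 20 kept 1 direction in the 4 combinations of sex and treatment, a property that 13.2% of all tested probes had and that choosing genes by this very difference favours.

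Among enzymes of metabolism, bisphosphate 3'-nucleotidase 1, which removes the phosphate from a by-product of sulfation reactions, had the smallest p. Its intensity had a lowest, median and highest value of 4.90, 5.23 and 6.32 in WSP-1, against 3.56, 4.48 and 5.47 in WSP-2. The ranges overlapped, with 3 of 8 WSP-1 arrays above every WSP-2 array. The difference was 1.00 ± 0.28 (SE, n = 8 each; 95% interval 0.41 to 1.58; limma, unadjusted p = 0.00236). It was 1.71 in female EtOH, 0.76 in female Air, 0.97 in male EtOH and 0.55 in male Air. It exceeded background on 8 of 8 WSP-1 arrays and 6 of 8 WSP-2 arrays, and without the female pool 1 arrays the difference was 0.72.

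The probe titled cis-Retinol/3alpha-hydroxysterol short-chain dehydrogenase, an enzyme class that oxidises retinol and hydroxysterols, ran through 3.61, 4.42 and 4.92 in WSP-1, against 3.22, 3.61 and 4.18 in WSP-2. Here 6 of 8 WSP-1 arrays lay above every WSP-2 array. The difference was 0.69 ± 0.20 (SE; unadjusted p = 0.00382). Sterol O-acyltransferase 1, which esterifies cholesterol for storage, pointed the other way with 3.72, 4.74 and 6.18 in WSP-1, against 4.15, 6.02 and 6.90 in WSP-2. Its difference was -0.82 ± 0.31 (SE; unadjusted p = 0.0168), and it was above background on 7 of 8 WSP-1 and 8 of 8 WSP-2 arrays.

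In membrane traffic and signalling at the cell surface, Snap23 (titled syndet), a SNARE protein of membrane fusion related to the synaptic SNAP-25, had values of 3.51, 4.00 and 4.81 in WSP-1, against 1.98, 3.38 and 3.83 in WSP-2. Of the WSP-1 arrays, 5 of 8 lay above every WSP-2 array. The difference was 0.81 ± 0.24 (SE; unadjusted p = 0.00437), with 0.79 in females and 0.82 in males. The probe was dim, above background on 4 WSP-1 arrays and 1 WSP-2 array. Chrna1, the alpha subunit of the muscle acetylcholine receptor, had a difference of 0.79 ± 0.28 (SE). Sh2b1, an adaptor in receptor tyrosine kinase and cytokine receptor signalling, had one of -0.57 ± 0.21 (SE).

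Several of the 20 act in adhesion, matrix and the cytoskeleton. The probe titled v-crk-associated tyrosine kinase substrate, an adaptor at integrin adhesions, ran through 3.90, 4.40 and 4.88 in WSP-1, against 2.97, 3.83 and 4.31 in WSP-2. The lines overlapped, with 4 of 8 WSP-1 arrays above every WSP-2 array, and the difference was 0.71 ± 0.21 (SE; unadjusted p = 0.00428). Cartilage-associated protein (CASP), a partner of collagen prolyl hydroxylation, ran through 4.03, 4.42 and 5.85 in WSP-1, against 4.45, 5.56 and 6.24 in WSP-2. Its difference was -0.72 ± 0.23 (SE; unadjusted p = 0.00559), and 4 of 8 WSP-2 arrays lay above every WSP-1 array. This was 1 of the brighter probes of the 20, above background on 7 WSP-1 arrays and 8 WSP-2 arrays. Integrin alpha E, which binds E-cadherin, had a difference of 0.74 ± 0.24 (SE), and exostoses (multiple) 1, which polymerises heparan sulfate, one of 0.84 ± 0.31 (SE). Adducin 3 (gamma), which links spectrin to actin, differed by 0.50 ± 0.18 (SE). Tropomodulin 3, a cap of the slow end of actin filaments, differed by 0.56 ± 0.23 (SE).

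The remaining members have varied roles. Transforming growth factor beta regulated gene 4 had the largest of the 20 differences, 1.11 ± 0.38 (SE; unadjusted p = 0.0104), with values of 3.93, 4.48 and 7.53 in WSP-1, against 2.95, 3.54 and 4.43 in WSP-2. The highest value came from female WSP-1 Air pool 1 alone, the array with the highest background reading, and without that array the difference was 0.74. Rpl27a, a protein of the large ribosomal subunit, differed by 0.61 ± 0.20 (SE). Transition protein 1, which packs chromatin in spermatids, differed by 0.62 ± 0.20 (SE), and sperm specific antigen 1 by -0.57 ± 0.19 (SE). Serine protease inhibitor, Kunitz type 2 differed by -0.53 ± 0.19 (SE) and protein tyrosine phosphatase, non-receptor type 12 by -0.49 ± 0.19 (SE). Mitochondrial carrier homolog 1 isoform a differed by -0.74 ± 0.28 (SE) and MMRP19 by 0.54 ± 0.22 (SE).

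**Figure D1:**
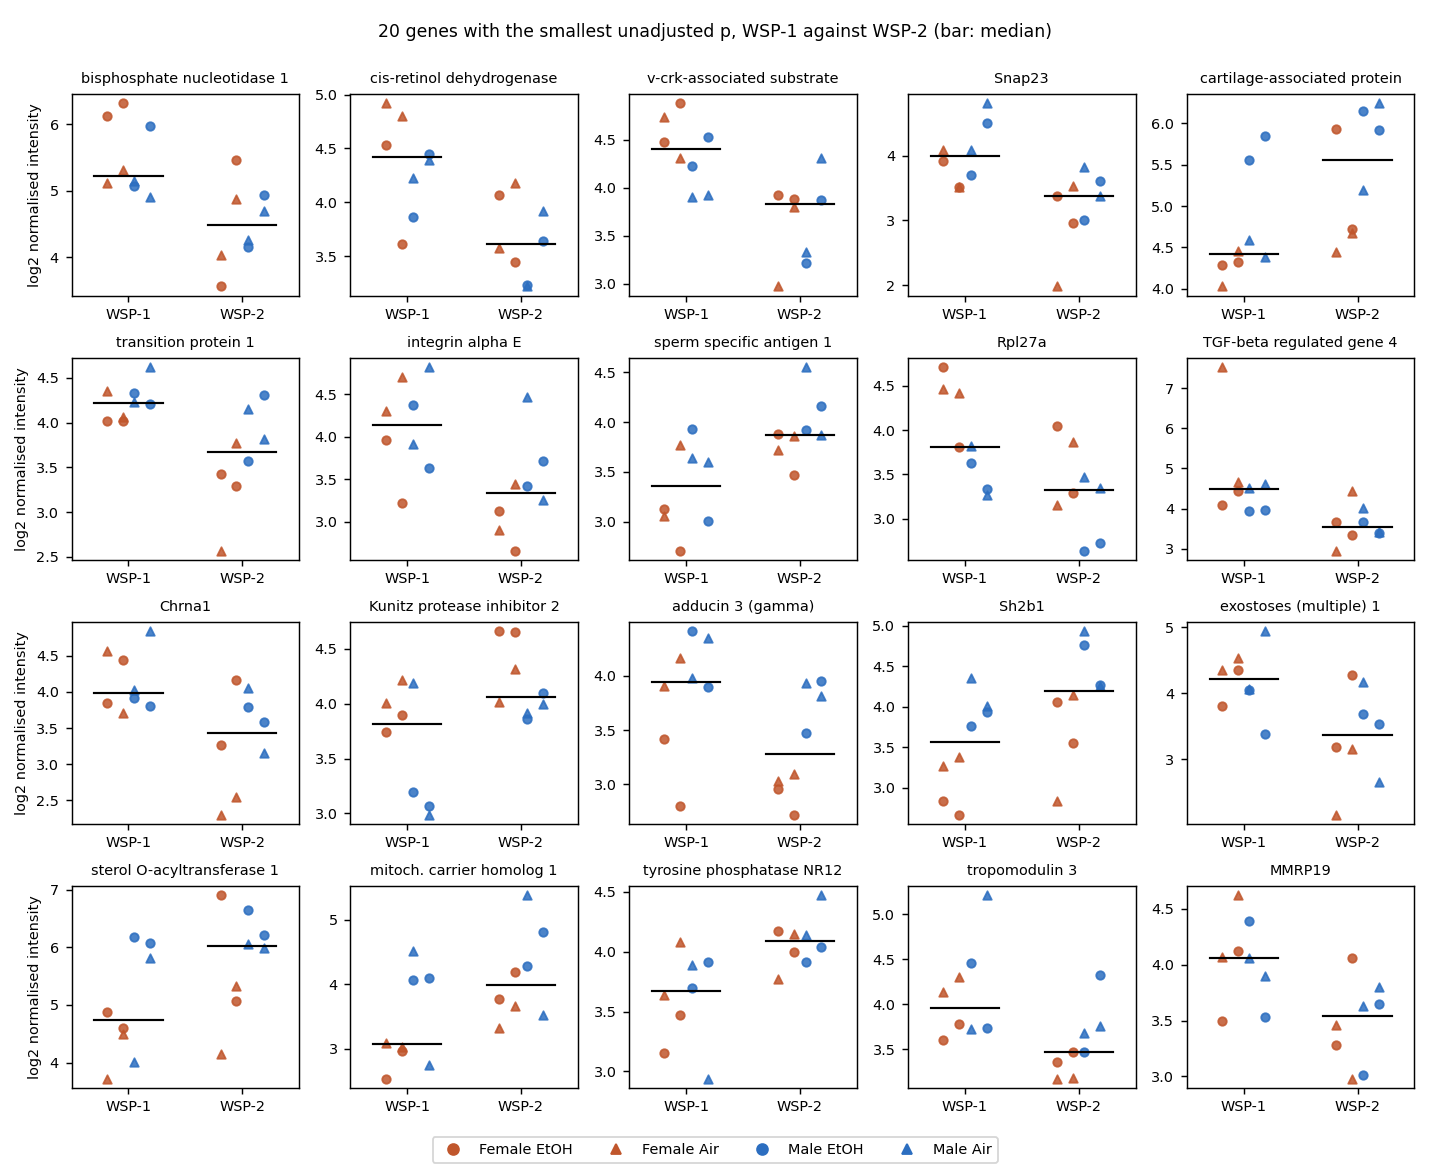
Log2 normalised intensity (vertical axis, scaled per panel) of the 20 named genes with the smallest unadjusted p, 1 point per array, with WSP-1 left of WSP-2. Colour marks sex, shape marks treatment and the bar is the median of 8 arrays. In every panel the ranges of the lines overlap, and the transforming growth factor beta regulated gene 4 panel shows the single WSP-1 array at 7.53.

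Position on the array moved with this list. Of the 20 genes, 7 lie in print grid 1e and 5 in grid 1f, and all 12 were higher in WSP-1. Over all probes, 35 of 203 in grid 1e (17.2%) and 15 of 151 in grid 1f (9.93%) had an unadjusted p under 0.05, every one of them higher in WSP-1, whereas grids 1a and 2b held 0 such probes. In grids 1g, 1h and 2e, where female WSP-2 Air pool 1 was also low, 0.571%, 4.04% and 2.86% had an unadjusted p under 0.05. Whether that array gave the excess in grids 1e and 1f was not tested. The median difference was 0.34 in grid 1e and 0.24 in grid 1f. After each grid of each array was centred on its median, a step chosen after seeing the data, grid 1e held 7 and grid 1f held 6, and 102 probes in all had an unadjusted p under 0.05. The difference of Snap23 was then 0.40, that of v-crk-associated tyrosine kinase substrate 0.30, that of the cis-Retinol/3alpha-hydroxysterol short-chain dehydrogenase 0.28 and that of adducin 3 (gamma) 0.09. Bisphosphate 3'-nucleotidase 1, in grid 2f, stood at 1.13 after the same step, and cartilage-associated protein (CASP), in grid 2d, at -0.57.

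**Figure D2:**
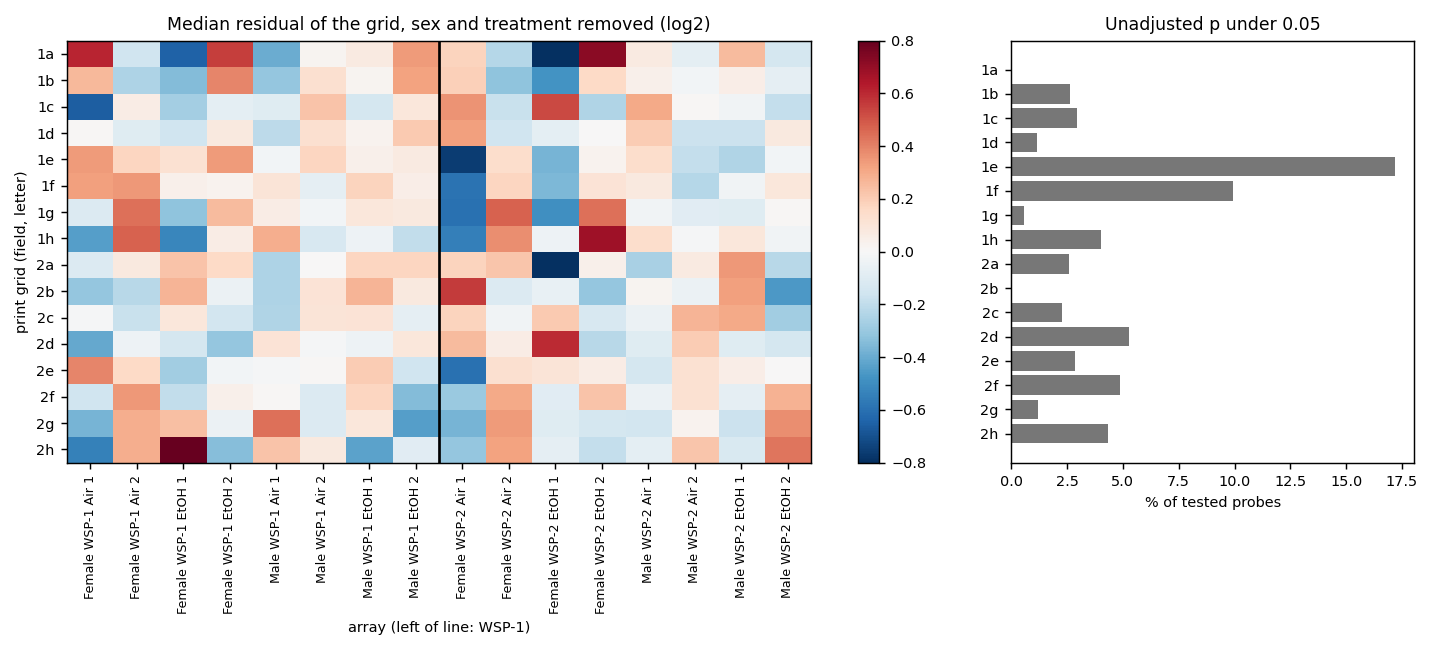
Left, the median residual of each print grid (rows) on each array (columns, the 8 WSP-1 arrays left of the line and the 8 WSP-2 arrays right of it) after sex and treatment were removed, in log2 units. Right, the percentage of tested probes of each grid with an unadjusted p under 0.05. Grid 1e reaches 17.2% and grid 1f 9.93%, and female WSP-2 Air pool 1 is low in both, and also in grids 1g, 1h and 2e.

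Fixed differences between lines should appear in separate sets of animals, so the line difference was computed in EtOH arrays and Air arrays, which share no animals. Across 3872 probes, Pearson's r between the EtOH and the Air differences was -0.0244 and Spearman's rho -0.0288, and 49.4% of probes had the same sign. Between the female and the male differences, r was -0.0387 and rho -0.00933, with 51.4% of probes of the same sign. These are descriptions across probes, which are not independent replicates and which share print grids and the normalisation. The female differences were more spread, with a standard deviation of 0.49 over probes, than the male ones at 0.36.

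**Figure D3:**
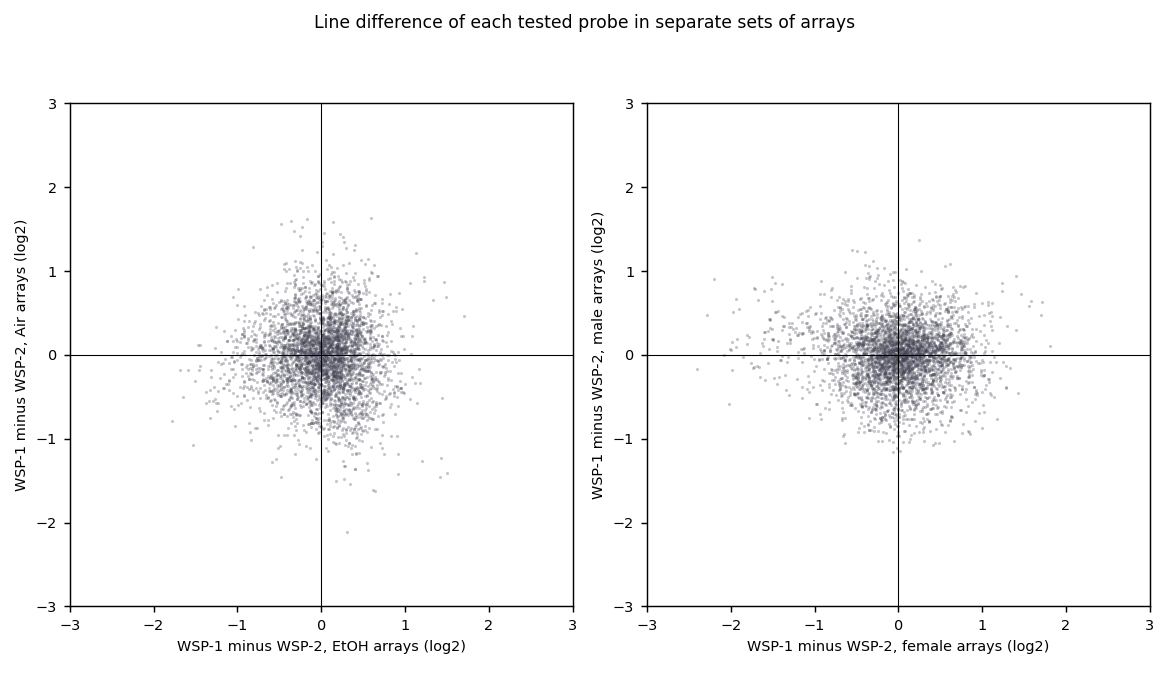
Difference WSP-1 minus WSP-2 (log2) of each of the 3872 tested probes, 1 point per probe, in EtOH arrays (horizontal) and Air arrays (vertical) on the left, and in female arrays (horizontal) and male arrays (vertical) on the right. Points fall in all 4 quadrants, with 49.4% of the same sign on the left and 51.4% on the right.

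Within a sex, no line difference passed either. In females 0 of 3872 probes (0%) were past the adjusted threshold in limma, with 180 (4.65%) at an unadjusted p under 0.05 and a smallest adjusted p of 0.932. Among probes whose title names 1 gene, Fcer1g, the signalling chain of Fc receptors on myeloid cells, had the smallest p there. Its female difference was 1.25 ± 0.31 (SE, limma unadjusted p = 0.000978) and its male one -0.09. It was followed by frizzled-9 protein (Mfz9), a Wnt receptor, with a female difference of 1.04 and a male one of -0.36. Next came v-crk-associated tyrosine kinase substrate at 0.96 in females, eukaryotic translation initiation factor 2 alpha kinase 3, a kinase of the unfolded protein response, at 1.17 in females and -0.08 in males, and bisphosphate 3'-nucleotidase 1 at 1.24 in females. Fcer1g and frizzled-9 protein (Mfz9) lie in grid 1f, and v-crk-associated tyrosine kinase substrate and the translation initiation factor kinase in grid 1e. These are among the grids in which female WSP-2 Air pool 1 was low. With centred grids the female differences of these 4 were 0.98 for Fcer1g, 0.77 for frizzled-9 protein (Mfz9), 0.42 for v-crk-associated tyrosine kinase substrate and 0.63 for eukaryotic translation initiation factor 2 alpha kinase 3. With female WSP-2 Air pool 1 left out instead, they were 1.15, 0.95, 0.75 and 0.99 in the same order.

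In males 0 of 3872 probes (0%) passed in limma, with 91 (2.35%) at an unadjusted p under 0.05 and a smallest adjusted p of 1. These female and male tests shared 1 estimate of spread per probe, from all 16 arrays. With only the arrays of each sex fitted, limma again called 0 probes in both. There were then 199 probes at an unadjusted p under 0.05 in males and 76 in females. The smallest adjusted p was 0.911 in males and 0.998 in females. Which sex had more such probes therefore depended on the fit. The smallest p among probes whose title names 1 gene belonged to interleukin enhancer binding factor 3, an RNA-binding protein. Its male difference was -1.03 ± 0.29 (SE, limma unadjusted p = 0.00327). S6 kinase 2, a kinase downstream of mTOR, had a male difference of 1.25, Cd14, a co-receptor for bacterial lipopolysaccharide, one of -1.03, cytokine inducible SH2-containing protein 2 one of -0.92 and PMP24 protein one of -0.91. The test of the difference between the sexes itself called 0 of 3872 probes (0%), with 133 (3.43%) at an unadjusted p under 0.05. Its 5 smallest p-values among probes whose title names 1 gene held S6 kinase 2, where females minus males was -1.80 ± 0.54 (SE). They also held cofilin 2, an actin-severing protein, at -1.81 ± 0.56 (SE) and frizzled-9 protein (Mfz9) at 1.40 ± 0.42 (SE). Interleukin enhancer binding factor 3 at 1.33 ± 0.41 (SE) and Fcer1g at 1.34 ± 0.43 (SE) completed the 5.

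The line difference was next compared between EtOH and Air arrays, where the injected dose differs by line. In limma 0 of 3872 probes (0%) passed, with 143 (3.69%) at an unadjusted p under 0.05 and a smallest adjusted p of 0.992. Ring finger protein 7, a subunit of cullin ubiquitin ligases, had the smallest p of the probes whose title names 1 gene. Its line difference was 0.71 in EtOH and -1.05 in Air, which gives 1.76 ± 0.40 (SE, limma unadjusted p = 0.000567) for EtOH minus Air. Lysine oxoglutarate reductase, saccharopine dehydrogenase, which begins lysine breakdown, had 0.83 in EtOH and -0.97 in Air. Pea15a, a phosphoprotein that binds ERK and is abundant in astrocytes, had 0.92 in EtOH and -1.42 in Air. Capping protein beta 1, which caps actin filaments, had 0.99 and -0.45, and Mocs2, an enzyme of molybdenum cofactor synthesis, 0.57 and -0.87. Pea15a exceeded background on 3 WSP-1 and 5 WSP-2 arrays, so these values lie close to the floor of the measurement.

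To see whether any difference was particular to the WSP pair, the WSP-1 minus WSP-2 difference was set against the WSR-1 minus WSR-2 difference over 31 arrays, of which 15 were WSR. In limma 0 of 3872 probes (0%) passed, with 130 (3.36%) at an unadjusted p under 0.05 and a smallest adjusted p of 0.992. Snap23 had the smallest p of the probes whose title names 1 gene. Its mean in that normalisation was 4.58 ± 0.47 in WSP-1 and 3.78 ± 0.57 in WSP-2, and 4.25 ± 0.72 in WSR-1 and 4.95 ± 0.37 in WSR-2 (SD, n = 8 in each line but 7 in WSR-2), which gives a difference of differences of 1.50 ± 0.38 (SE; unadjusted p = 0.000484). Bisphosphate 3'-nucleotidase 1 followed at 1.27 ± 0.38 (SE), with a WSR-1 minus WSR-2 value of -0.29. Hspe1, the mitochondrial co-chaperonin, had -1.13 ± 0.34 (SE), from a WSR-1 minus WSR-2 value of 0.80. Lectin, galactose binding, soluble 1, a secreted galectin, had -0.83 ± 0.29 (SE) and the dual adaptor for phosphotyrosine and 3-phosphoinositides 1 had -1.37 ± 0.48 (SE). Most of both came from the WSR pair, with WSR-1 minus WSR-2 values of 0.64 for the lectin and 1.10 for the dual adaptor. Their WSP-1 minus WSP-2 differences in the 16-array fit were -0.19 and -0.27. The WSR pair, taken as its own contrast in that 31-array fit, also gave 0 calls in limma. It had 275 of 3872 probes at an unadjusted p under 0.05 and a smallest adjusted p of 0.346. The WSP pair in the same fit had 82 of 3872 and a smallest adjusted p of 0.999. The 2 counts do not settle which pair differed more, since array quality was not matched. In the deposited scores (rescaled log2 intensities), the median listed value was 8.87 to 10.67 on the female WSR arrays used. It was 8.17 to 11.19 on female WSP pool 1 arrays, the poorest ones, and 7.35 to 7.69 on female WSP pool 2 arrays. Female WSR-2 EtOH also had only 1 array.

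Genes were then read by function, in 13 gene lists and 11 lists of cell type and sex markers, of which 68 probes in all could be tested. No list member passed the adjusted threshold in limma. All 68 intervals lay within -1.5 to 1.5, and 64 included 0. Values below are differences with 95% intervals. The counts of direction stand beside a share of 49.4% of all tested probes higher in WSP-1. For several lists and genes the value with centred grids or without the female pool 1 arrays is given too; many values near 0 changed sign between these settings.

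Antigen presentation and interferon genes are among the most variable between mouse strains. Of 7 probes tested, 5 were higher and 2 lower in WSP-1, with a median of 0.24 against -0.01 over all probes, and 0 had an unadjusted p under 0.05. H2-Eb1, an MHC class II beta chain, had 0.25 (-0.26 to 0.75) and H2-Aa, a class II alpha chain, 0.24 (-0.32 to 0.81), both dim. Cd74, the invariant chain that escorts class II molecules, was bright on all 16 arrays, with a mean of 9.33 in WSP-1 and 9.35 in WSP-2 and a difference of -0.02 (-0.46 to 0.43). Mx2, an interferon-induced antiviral GTPase, had 0.31 (-0.29 to 0.90) and Irf3, a transcription factor of the interferon response, 0.26 (-0.18 to 0.70). Of 4 probes for genes known to vary in brain between inbred strains, 1 was higher and 3 lower, from -0.12 for Thy1, a surface glycoprotein of neurons, to 0.11 for Syt4, a synaptotagmin; with centred grids 3 of the 4 were higher.

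Candidate genes from mapped regions for ethanol withdrawal gave 4 tested probes, 1 higher and 3 lower in WSP-1, with a median of -0.23. Copa, a coat protein of Golgi vesicles, had -0.53 and the only unadjusted p under 0.05 of the list, and -0.22 without the female pool 1 arrays. Grin1, the obligate subunit of NMDA receptors, had 0.53 (-0.04 to 1.11), Pea15a -0.25 (-1.16 to 0.66) and Ncs1, a neuronal calcium sensor, -0.21 (-0.74 to 0.32). Among GABA genes, Sst, the somatostatin peptide of an interneuron class, had 0.54 (0.03 to 1.05), Slc32a1, the vesicular GABA transporter, 0.17 (-0.87 to 1.2) and Gabbr1, a GABA-B receptor subunit, -0.07 (-0.71 to 0.57). Sst exceeded background on 8 WSP-1 and 6 WSP-2 arrays, and the difference was 0.47 in females and 0.61 in males.

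Glutamate and scaffold genes gave 4 probes, all higher, with a median of 0.05, whereas 2 were higher without the female pool 1 arrays. The scaffold Dlg4 had 0.01 (-0.36 to 0.39) and Glul, glutamine synthetase, 0.08 (-0.55 to 0.72). Of 5 vesicle release probes, 3 were higher and 2 lower. Apart from Snap23 these included Itsn1, an endocytic scaffold, at 0.35 (-0.39 to 1.09), Syn1, a synaptic vesicle phosphoprotein, at -0.27 (-0.90 to 0.36) and the v-SNARE Vamp2 at -0.11 (-0.62 to 0.40). Of 5 ion channel and pump probes, 4 were higher, with a median of 0.38. Cacnb3, a calcium channel beta subunit, had 0.44 (-0.05 to 0.92), lies in grid 1e and stood at 0.03 with centred grids. The median of the list was 0.11 with centred grids and 0.08 without the female pool 1 arrays. Atp1b1, a sodium pump subunit, was measured by 2 probes, with 0.05 (-0.28 to 0.38) on the bright probe and -0.08 (-0.81 to 0.66) on the dim one.

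Immediate early genes, which mark recent neuronal activity, gave 6 tested probes, 1 higher and 5 lower, with a median of -0.20 that stood at -0.25 in females and 0.18 in males. Nr4a2, an orphan nuclear receptor, had -0.44 (-0.95 to 0.08), Jun, a subunit of AP-1, -0.33 (-1.29 to 0.63), and Ier2, bright on all arrays, -0.10 (-0.55 to 0.36). The value of Jun rested on female WSP-2 EtOH pool 1, at 6.84 where the next WSP-2 array had 4.43, and it was 0.19 without the female pool 1 arrays. Without those arrays the list had 3 probes higher and a median of -0.04. Of 6 chaperone probes, 5 were higher, with a median of 0.18. Hspa4, an exchange factor for Hsp70, had 0.45 (-0.27 to 1.18), Tcp1, a subunit of the cytosolic chaperonin, 0.38 (-0.15 to 0.91), Hspe1 -0.35 (-0.85 to 0.14) and Dnajb1, an Hsp40 co-chaperone that was bright on all 16 arrays, 0.03 (-0.34 to 0.40). Hspa4 was low on the female WSP-2 pool 1 arrays, at 5.45 in Air and 5.11 in EtOH, and its difference was 0.05 without the female pool 1 arrays and 0.05 with centred grids. The median of the chaperones was 0.04 without the female pool 1 arrays. Cyp2e1, an ethanol-oxidising cytochrome P450, had 0.01 (-0.47 to 0.49) and Cyp2b9, a cytochrome P450 of the 2B family, 0.42 (-0.50 to 1.35). Female WSP-1 Air pool 1 had the highest Cyp2b9 value, 6.19, and the difference was 0.13 without that array and 0.01 without all female pool 1 arrays.

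Respiratory chain genes gave 5 probes, 3 higher and 2 lower, with a median of 0.07. The complex I subunit Ndufv1 had 0.49 (-0.14 to 1.12) on one probe and -0.07 (-0.56 to 0.43) on the other, and Ndufs4, another subunit of that complex, had -0.36 (-0.96 to 0.25). All 4 ribosomal protein probes were higher, with a median of 0.28, from 0.05 for Rpl36 to the 0.61 of Rpl27a. With centred grids 3 of the 4 were higher, with a median of 0.15, Rpl27a stood at 0.21 and Rpl36 at -0.03. Of 7 chromatin modifier probes, 2 were higher and 5 lower, with a median of -0.09, whereas 4 were higher without the female pool 1 arrays. Hdac6, a mainly cytoplasmic deacetylase, had -0.50 (-1.05 to 0.04) and Ezh2, a histone H3 methyltransferase, -0.34 (-0.94 to 0.25).

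**Figure D4:**
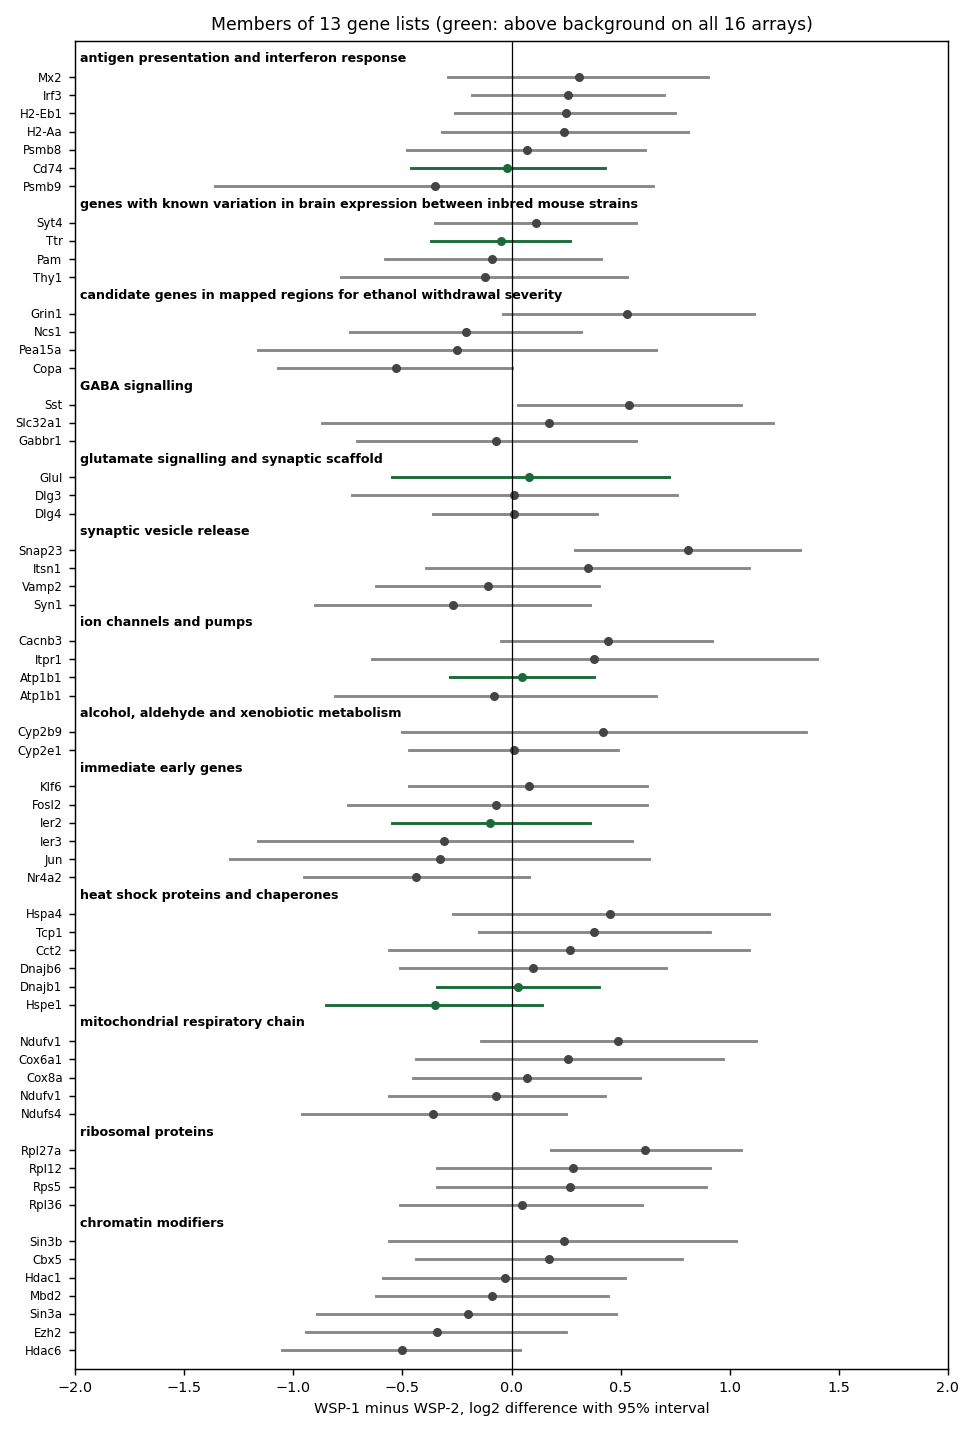
Difference WSP-1 minus WSP-2 (log2, horizontal axis) with its 95% interval for tested members of 13 gene lists, 1 row per probe; a gene in several lists is drawn once. Green marks probes above background on all 16 arrays. The green intervals all lie within -1 to 1 and include 0.

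Markers of cell types were checked for a shift in tissue composition or dissection. In bulk tissue fewer cells of a type and less RNA per cell cannot be told apart. Of 11 marker lists, 9 had a tested member, mostly 1 to 3. Transcripts of the choroid plexus were bright on all 16 arrays, with Ttr, the thyroid hormone carrier of that epithelium, at -0.05 (-0.37 to 0.27) and Enpp2, the enzyme autotaxin, at 0.06 (-0.24 to 0.36). Hba-a1, an alpha globin that marks blood, had -0.12 (-0.46 to 0.22). Among astrocyte markers, Ndrg2 had 0.27 (-0.44 to 0.99) and the glycolytic enzyme Aldoc -0.12 (-0.53 to 0.28). Cd14, for macrophages and microglia, had -0.45 (-1.03 to 0.13), with 0.13 in females and -1.03 in males. Eng, an endothelial co-receptor for TGF-beta, had -0.53 (-1.14 to 0.09), with -1.04 in females and -0.01 in males. Of the list of 12 general neuron markers, Syn1 was the only member measured, at -0.27. The interneuron markers measured were Sst and Slc32a1, and Sst, at 0.54 (0.03 to 1.05), was the only cell type marker whose interval did not include 0. Its adjusted p in limma was 0.993. The Sst difference was 0.41 with centred grids, 0.45 without the female pool 1 arrays and 0.41 with array weights. The unadjusted p in limma was then 0.0725, 0.0539 and 0.054, so it did not fall under 0.05 in these settings.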

How the data were processed

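Per the file headers, each deposited file gives 1 intensity per spot on a linear scale and 1 background intensity for the whole array. The quantification software is not given in the sources used here. The deposited series table holds a score: each array's log2 intensity rescaled by the authors to a mean of 8 and an SD of 2, as found by setting it against the intensities. It served as an alternative.

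Intensities were corrected with limma's normexp (limma 3.58.1 in R 4.3.3; offset 50, or 0.1 of the array median where that was under 500). The 192 genomic DNA control spots were then dropped, the 16 arrays quantile normalised and log2 taken. Probes with a mean above the 25th percentile were tested with lmFit and eBayes, with terms for sex and treatment, and Benjamini-Hochberg adjustment over all probes at 0.05. Sex and treatment interactions used 1 mean per cell of the 2 factors. The comparison with WSR used 31 arrays normalised together, without 1 array that the submitters marked as excluded. The fits were tested on simulated data. Plots were drawn with matplotlib.

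A probe is above background where its signal exceeds the array's reading. Where a gene symbol is given it comes from the probe's title or, through its accession, from RefSeq; array titles can be old. Named genes are those with a title naming 1 gene and the smallest unadjusted p (20 for the line difference, 5 for each other comparison, since none passed), up to 4 members per list with the smallest p, list members above background on all 16 arrays, which were added afterwards, and measured sex-linked genes. Some list members are not reported here. The members and lists were chosen with earlier results of these data known. P-values reflect variation among arrays, each of which measured a separate pool of animals. Differences between pools and differences between arrays cannot be told apart in them, and the number of arrays limits the precision. The header of the female WSP-1 EtOH pool 2 file carries the name of pool 1; its values differ from that array, and the deposited record was followed.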

Additional observations from a re-analysis of the deposited data

Results flagged for a closer look

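Single arrays stood apart from the other 7 of their line in 19 of 178 sets of 8 values, judged by the gap to the nearest array against the range; chance flags about 1 in 20. Female pool 1 arrays gave 12 of the 19. Female WSP-1 Air pool 1 was the highest WSP-1 array for transforming growth factor beta regulated gene 4 (7.53, next 4.66), Itpr1 (7.39, next 4.10) and Ier3 (6.51, next 4.46), and the lowest for Glul (6.84, next 7.61). Female WSP-2 Air pool 1 was the lowest WSP-2 array for Snap23 (1.98, next 2.96), Grin1 (2.44, next 3.46), Ier2 (5.27, next 6.07) and Ndufs4 (4.00, next 5.17). Female WSP-2 EtOH pool 1 was the lowest WSP-2 array for Glul (5.73, next 7.67) and Gabbr1 (4.82, next 6.14), and the highest for Jun (6.84, next 4.43) and Ndufv1 (5.29, next 4.30).

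Among the other arrays, female WSP-2 Air pool 2 was the lowest WSP-2 array for Cd14 (3.37, next 4.10) and for the dual adaptor for phosphotyrosine and 3-phosphoinositides 1 (2.50, next 3.54), and female WSP-2 EtOH pool 2 the highest for Sin3a (5.15, next 4.36). Male WSP-1 Air pool 2 was the lowest WSP-1 array for Cacnb3 (3.0, next 3.98). Male WSP-1 EtOH pool 2 was the lowest for Dnajb1 (8.01, next 8.36) and the highest for Cct2 (5.84, next 4.31). Male WSP-2 EtOH pool 2 was the highest WSP-2 array for Cd74 (9.94, next 9.51).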

How the results depend on the processing

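The count of probes past the adjusted threshold was 0 in 192 of 193 alternatives over the 6 comparisons, which varied background correction, scaling, filter, array weights, batch terms, the deposited series table and the arrays left out. The exception was the WSP against WSR comparison without female WSR-2 EtOH replicate 2, where 1 probe, an expressed sequence tag, passed (2.48, limma adjusted p = 0.00367); leaving out each of the 31 arrays in turn gave 0 to 1 calls there, and that sex and treatment of WSR-2 then has no array left. For the line difference the number at an unadjusted p under 0.05 ran from 36 with the deposited series table to 266 in male arrays with centred grids, against 140, and the smallest adjusted p in any alternative was 0.403, with array weights. Without the female pool 1 arrays it was 199. The main fits did not pair arrays by pool number. The pool 1 minus pool 2 difference was correlated between groups at 0.0389 to 0.373 in females (mean 0.197), where pool 1 arrays also had the higher background readings. In males it was -0.256 to 0.14 (mean -0.0611). With sex and pool number as a replicate block there were 0 calls in all 6 comparisons, and 177 probes at an unadjusted p under 0.05 for the line difference. The 20 genes named for the line difference kept their direction with centred grids and without the female pool 1 arrays. Without background correction the 19 of them that could be measured did so too. Of 57 list members described, 39 had the other sign in at least 1 alternative. Ttr stood at 0.22 and Hba-a1 at 0.16 with centred grids, and Cd14 at 0.46 in the series table. The median difference of all probes was -0.006 with quantile scaling, -0.002 with cyclic loess and 0.042 with median scaling. Without background correction, each of the 19 genes named for the line difference that could be measured had a difference smaller by over 1.5 times. Signal over background limits what can be read: none of the 20 genes named for the line difference exceeded background on all 16 arrays.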
